A study of Mus musculus with 20 samples.

Results

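The genes described here are 35 mouse genes of DNA replication that are known as targets of the E2F transcription factors, out of 25043 genes named on the array. They were taken by name. Every probe whose gene name in the scanner data equals a listed name was taken, which gave 67 probes, 1 for each of 13 genes and several for each of the other 22. Each gene is represented by the brightest of its probes, judged over all 20 arrays. Of the 35 members, 34 were bright enough to be tested in both comparisons below. The exception was Ccne2, which encodes cyclin E2: its probe was well above background on 1 MEKi array and on none of the other 19, so no difference is given for it.

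E2F factors, bound to a DP partner, switch on the genes a cell needs to copy its DNA. In resting cells the retinoblastoma family of pocket proteins holds E2F back. Growth signals, among them the RAF, MEK and ERK kinase cascade, raise cyclin D and then cyclin E kinase activity, which phosphorylates the pocket proteins and frees E2F. The intestinal crypt is among the fastest dividing tissues of the adult mouse, and its stem and transit amplifying cells express the replication genes, while villus cells have left the cycle. A whole-tissue array therefore reads a mixture, and more dividing cells cannot be told apart from more of these RNAs per dividing cell.

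RNA came from intestinal tissue of C57BL6/j mice, 1 array per mouse and 20 arrays in all. Cre control mice (6 arrays) carried VillinCreER/0, a tamoxifen-activated Cre recombinase driven by the villin promoter, which is active in the gut epithelium and not in the stroma, muscle or immune cells of the sample. BRAFV600E mice (6 arrays) carried in addition BrafV600E-LSL/+, a knock-in allele that makes the mutant kinase once Cre has removed a stop cassette. Both groups were 8 to 12 weeks old, received 3 daily doses of 2 mg tamoxifen, and gave tissue 3 days after the last dose. The study states equal numbers of males and females for these 2 groups. MEKi mice (4 arrays) and Vehicle mice (4 arrays) received 2 daily tamoxifen injections, each of a smaller stated dose than in the first 2 groups. These were followed by 3 daily injections of the MEK inhibitor PD184352 or of its carrier, 10% DMSO and 10% Cremophor EL. That these 8 mice carried the mutant allele is stated in the study's figure legends and not in the labels, and no age is stated for them by group: the methods give 8 to 12 weeks for transgene induction in general, and 8 weeks to 6 months for all mice. The labels also hold a text on a statin given to female mice, identical for all 20 arrays, which matches none of the 4 groups and was not used.

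Each level below is the log2 of the processed spot signal minus the 75th percentile of that array, so that 0 means a spot as bright as the 75th percentile and 1 unit is a doubling. Levels of different genes were not compared, since probes differ in how well they bind. A gene was called when limma's adjusted p (Benjamini-Hochberg over all genes tested) was under 0.05. The 2 comparisons were fitted apart and share no array.

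Some arrays stood apart from the rest over all genes. Slide 1 held all Cre control mice and BRAFV600E replicates 1 and 2. The remaining BRAFV600E mice, replicates 3 to 6, were on slide 2, which held no control and where the spike-in RNA gave a slope of 0. All MEKi and Vehicle arrays lay on slide 3, in different rows, so row and treatment cannot be told apart. Vehicle replicate 2 carried RNA of exocrine pancreas: the summed level of 4 pancreas markers was 1262 times the 75th percentile there and at most 0.681 times on every other array. Y-linked genes were high on all 4 MEKi arrays but on only Vehicle replicates 1 and 3. They were also high on Cre control replicates 1, 2 and 3 and on BRAFV600E replicates 1, 2, 3 and 6. All 8 enterocyte markers were above background in each group, as were all stem, Paneth and goblet cell markers, so the tissue is intestine with its epithelium. Braf itself differed by 0.42 ± 0.20 (log2, SE) between BRAFV600E and Cre control (limma adjusted p = 0.172), a level that checks neither the mutation nor its recombination.

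The members were searched for E2F sites because the list rests on that label. RefSeq promoter sequence (assembly GRCm38.p6) was at hand for 31 members, and the 250 bases before each start site were searched on both strands for the E2F letters TTTCGCGC, TTTCCCGC, TTTGGCGC and TTTGCCGC, and for the CCAAT box, the motif of the NF-Y factor common in cell-cycle promoters. An E2F site was found in 6 of 31 members (19.4%), against 2.16% of the 27025 genes in the table, and a CCAAT box in 15 of 31 (48.4%), against 37.5%. The E2F sites lay in Mcm5, Mcm6, Mcm7, Cdc6, Rfc3 and Pola1. Rrm2, Pcna, Mcm2 and Mcm3 held a CCAAT box and none of these E2F letters, and Dut and Pole2 held neither. Absence of a match says only that these letters are not in this window. Ccne2, Gins1, Gins2 and Mcm4 were not searched.

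The promoters of 4 members are shown, each as the 170 bases before the start site and read 5′ to 3′ on the strand of the gene. Mcm3 and Rrm2 were each called in a comparison below. Mcm6 and Cdc6 hold E2F sites and were called in neither, though their MEKi and Vehicle groups did not overlap. Dut and Pole2, also called, held neither motif and are not shown. No link between the motifs and the results was tested. Capitals mark E2F sites and CCAAT boxes, on either strand (ATTGG is the box read from the other strand).
Mcm3 (chr1:20820313-20820482, minus strand): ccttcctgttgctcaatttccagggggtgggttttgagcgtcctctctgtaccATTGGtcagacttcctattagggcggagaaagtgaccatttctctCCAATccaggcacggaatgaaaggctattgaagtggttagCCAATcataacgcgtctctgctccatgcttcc
Mcm6 (chr1:128359706-128359875, minus strand): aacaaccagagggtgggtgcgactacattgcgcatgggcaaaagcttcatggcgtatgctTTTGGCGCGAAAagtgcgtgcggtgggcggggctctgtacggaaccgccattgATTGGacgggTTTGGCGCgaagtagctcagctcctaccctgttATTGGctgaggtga
Cdc6 (chr11:98907981-98908150, plus strand): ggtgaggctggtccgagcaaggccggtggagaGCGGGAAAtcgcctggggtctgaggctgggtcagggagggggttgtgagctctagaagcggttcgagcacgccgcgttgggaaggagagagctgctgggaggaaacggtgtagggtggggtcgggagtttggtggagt
Rrm2 (chr12:24708084-24708253, plus strand): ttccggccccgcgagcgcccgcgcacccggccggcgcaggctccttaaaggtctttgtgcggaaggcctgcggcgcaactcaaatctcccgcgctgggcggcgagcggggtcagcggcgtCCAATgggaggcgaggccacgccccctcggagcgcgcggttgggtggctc
The capitals of Mcm6 that open the sequence are 2 overlapping E2F sites, 110 and 106 bases before the start, and another site begins 47 bases before it. The Mcm3 promoter held 3 CCAAT boxes, 117, 72 and 32 bases before the start. The site of Cdc6 began 138 bases before the start, and the box of Rrm2 50 bases before it.

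The first comparison asks whether 3 days of mutant BRAF moved the replication genes. Among the 34 members tested, 2 rose in BRAFV600E against Cre control (Rrm2 and Dut, both enzymes of nucleotide supply), where 6.18% of all 19036 genes tested were called higher. One probe fell (that of Pole2), where 6.26% of all genes were called lower. Both counts were at or below what the shares of all genes would give in 34 genes. In sign the members leaned upward: 24 of 34 lay above 0, against 48.4% of all genes, and their median difference was 0.23 against -0.02 for all genes. At an unadjusted p under 0.05, 12 members were higher (15.0% of all genes were) and 2 were lower (15.2% of all genes were). The second comparison asks whether blocking MEK moved them in mice with the mutant allele, and here 26 of 34 lay below 0, with a median difference of -0.19 against 0.04 for all genes. Only Mcm3 fell past the threshold, where 0.884% of all 19230 genes tested were called lower, and none rose, where 1.09% were. At an unadjusted p under 0.05, limma gave 11 members lower, against 7.25% of all genes, and 0 higher.

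**Figure D1:**
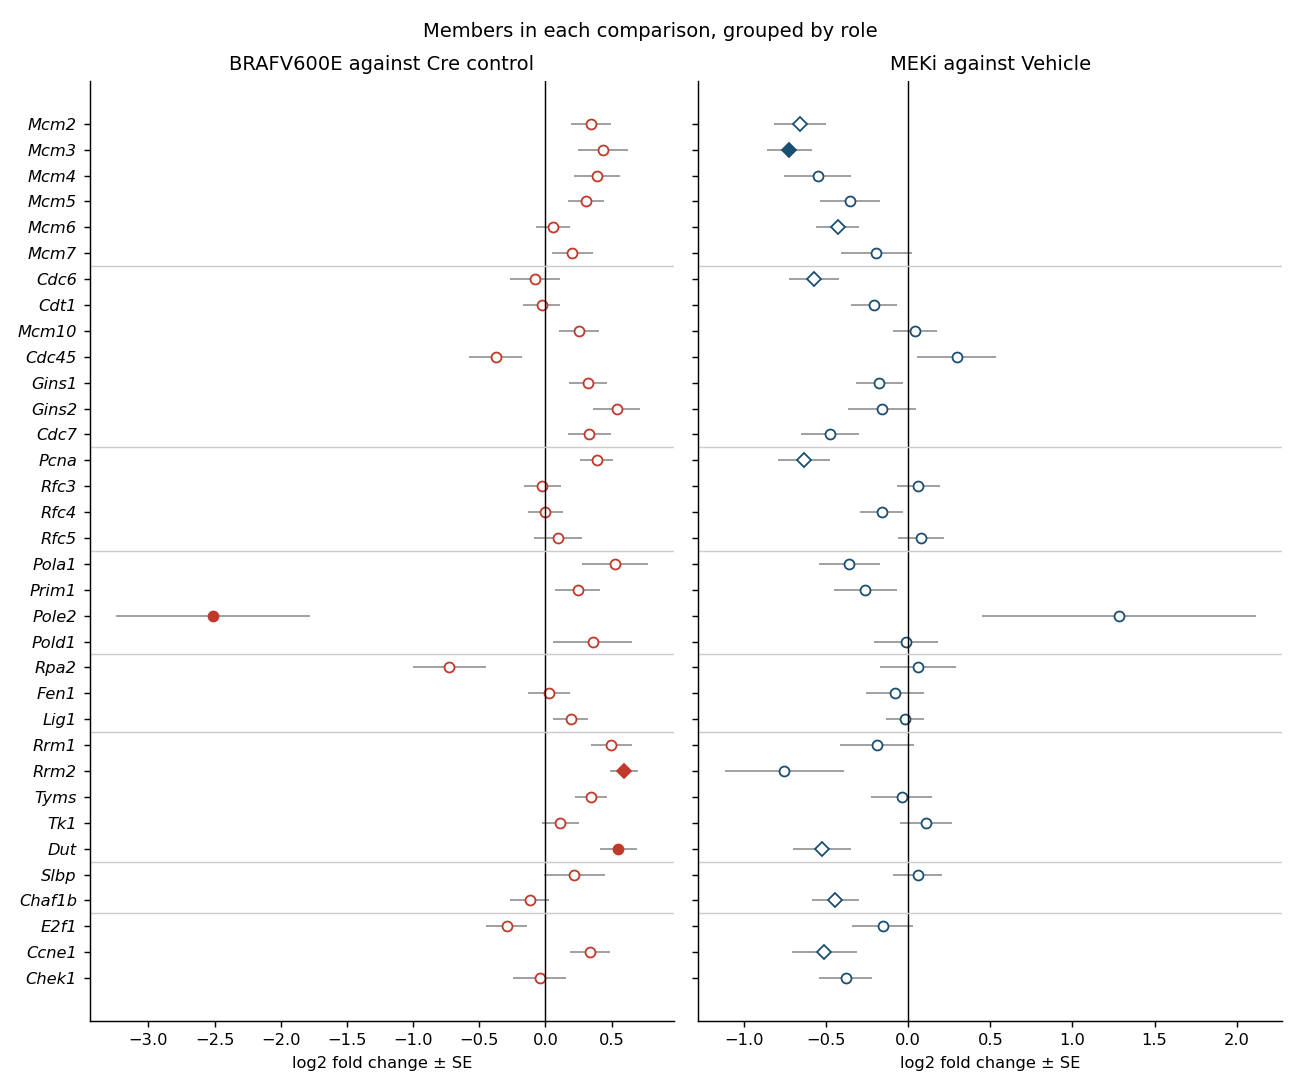
Log2 fold change ± SE of the 34 members tested, BRAFV600E against Cre control on the left (6 and 6 arrays) and MEKi against Vehicle on the right (4 and 4 arrays), with grey lines between roles and different x axes. Filled symbols were called by limma and diamonds mark groups that do not overlap: all 6 MCM genes lie right of 0 on the left and left of 0 on the right, and Pole2 stands far from the other members in both panels.

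Mcm2 to Mcm7 encode the 6 subunits of the ring-shaped helicase that is loaded onto origins in G1 and unwinds DNA in S phase. On their brightest probes all 6 lay above Cre control in BRAFV600E, by 0.06 (Mcm6) to 0.43 (Mcm3), with a median of 0.32, and none was called. The second, much dimmer probe of Mcm7 differed by -0.91 there. For Mcm5, 1 BRAFV600E spot was marked as an outlier and dropped, which left 5 arrays. In MEKi all 6 lay below Vehicle, by -0.20 (Mcm7) to -0.73 (Mcm3), with a median of -0.49, and Mcm3 was called.

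Mcm3 was between 1.44 and 2.34 in Cre control (median 1.79) and between 2.01 and 2.76 in BRAFV600E (median 2.31). It read 1.65, 1.35, 1.58 and 1.48 in the 4 MEKi mice and 2.05, 2.10, 2.42 and 2.39 in the 4 Vehicle mice. The first pair of groups overlapped, since Cre control replicates 1 and 6 lay within the BRAFV600E range, while every MEKi value lay below every Vehicle value. The difference was 0.43 ± 0.19 (SE) in BRAFV600E (limma adjusted p = 0.142) and -0.73 ± 0.14 in MEKi, a level 1.65-fold lower (limma adjusted p = 0.0415). All 4 probes of Mcm3 were lower in MEKi. The call was close to the threshold: it was lost when any 1 of the 8 arrays was left out (adjusted p from 0.0543 to 0.119) and with the Y-linked level as a covariate (-0.71, adjusted p = 0.166). The Mcm3 probe lies at chr1:20793159-20793218 (mm9).

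Mcm2 ranged from -0.02 to 0.52 in Cre control (median 0.14) and from 0.12 to 0.81 in BRAFV600E (median 0.61). It was 0.33, -0.24, 0.35 and 0.21 in MEKi against 0.65, 0.86, 0.82 and 0.94 in Vehicle. The 4 MEKi mice lay wholly below the 4 Vehicle mice, with a difference of -0.66 ± 0.16 that missed the threshold (limma adjusted p = 0.0899), and the BRAFV600E difference of 0.34 ± 0.15 missed it too (adjusted p = 0.143).

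On its brightest probe Mcm6 showed almost no difference in the first comparison, with 2.81 to 3.36 in Cre control (median 3.17) and 2.95 to 3.36 in BRAFV600E (median 3.14). In the second it was 3.14, 2.78, 3.16 and 3.20 in MEKi and 3.37, 3.53, 3.52 and 3.59 in Vehicle. These values again did not overlap, and the difference of -0.43 ± 0.13 had a limma adjusted p of 0.161. The second, much dimmer probe of Mcm6 differed by 0.83 in BRAFV600E and by -0.70 in MEKi. Mcm4 (-0.55 ± 0.20, adjusted p = 0.22) and Mcm5 (-0.36 ± 0.18, adjusted p = 0.389) were lower in MEKi with overlapping groups, and Mcm7 differed least (-0.20 ± 0.22).

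The mean level of the 6 helicase genes on each array summed up this pattern. It was 2.01, 1.46, 2.03 and 1.86 on the MEKi arrays and 2.14, 2.40, 2.33 and 2.44 on the Vehicle arrays, so the groups did not overlap. Vehicle replicates 1 and 3, which like the MEKi arrays were high in Y-linked genes, were the lowest of the Vehicle arrays (2.14 and 2.33). In the first experiment Mcm5 was missing on 1 array, so the mean was taken there over the other 5 genes on every array. It ranged from 1.69 to 2.19 in Cre control and from 1.91 to 2.48 in BRAFV600E, with overlap. Over the 33 members measured on every array the means overlapped in both experiments, from 0.76 to 1.06 in Cre control, 0.71 to 1.21 in BRAFV600E, 0.57 to 1.02 in MEKi and 0.96 to 1.16 in Vehicle.

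**Figure D2:**
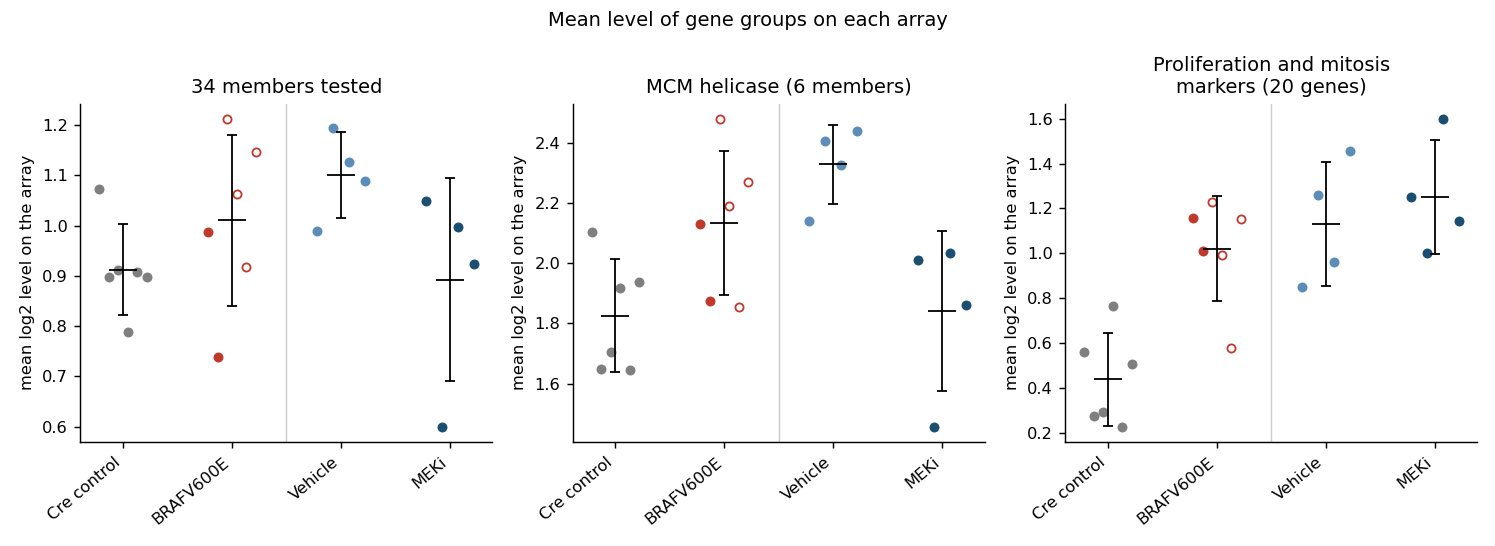
Mean log2 level on each array of the 34 members tested, of the 6 MCM genes (33 and 5 on BRAFV600E replicate 3, where Mcm5 was dropped, so that its means do not compare directly with the others) and of 20 proliferation and mitosis markers, with black lines for the mean ± SD of each group; open symbols are slide 2, and the vertical line separates the 2 experiments. The MCM mean of every MEKi array (1.46 to 2.03) lies below that of every Vehicle array (2.14 to 2.44), while the mitosis markers overlap (1.00 to 1.60 in MEKi, 0.85 to 1.46 in Vehicle).

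The members that load and fire the helicase did not move as a block. Cdc6 and Cdt1 bring the MCM ring to the origin, Cdc7 is the kinase that fires it, and Mcm10, Cdc45 and the GINS subunits Gins1 and Gins2 build the active helicase. In BRAFV600E none of these 7 was called and 4 lay above 0, the highest being Gins2 (0.54 ± 0.18, limma adjusted p = 0.0626), and Cdc45 was the lowest (-0.38 ± 0.20). The second, dimmer probe of Cdc45 differed the other way, by 0.75. In MEKi 5 lay below 0 and none was called.

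Cdc6 was the clearest of them in MEKi, at -1.43, -1.23, -1.42 and -1.54 against -1.16, -0.59, -0.77 and -0.81 in Vehicle. The groups did not overlap, though the highest MEKi value came close to the lowest Vehicle value (difference -0.58 ± 0.15, limma adjusted p = 0.109). In the first comparison Cdc6 was -1.08 to -0.07 in Cre control (median -0.51) and -1.06 to -0.37 in BRAFV600E (median -0.52), and the difference of -0.08 ± 0.19 was within the spread. Its second, dimmer probe differed by 0.99 there, the other way, and by -0.73 in MEKi.

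Pcna encodes the sliding clamp that holds DNA polymerase on its template, and Rfc3, Rfc4 and Rfc5 belong to the complex that loads it. Pcna ranged from 3.11 to 3.67 in Cre control (median 3.32) and from 3.62 to 3.96 in BRAFV600E (median 3.74). All but 1 of the Cre control values lay below every BRAFV600E value, and the difference of 0.39 ± 0.13 just missed the threshold (limma adjusted p = 0.0606). It was 3.23, 3.18, 3.59 and 3.18 in MEKi against 3.68, 4.04, 3.82 and 4.18 in Vehicle, without overlap (difference -0.63 ± 0.16, adjusted p = 0.0964). The 3 clamp loader genes differed by -0.16 (Rfc4 in MEKi) to 0.10 (Rfc5 in BRAFV600E) on their brightest probes, and none was called. Probes of Rfc5 disagreed: its second probe differed by -1.23 in BRAFV600E and by 2.12 in MEKi, with overlapping groups in both, while its dimmest differed by 0.18 and -0.17.

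Of the polymerase and primase genes, Pola1 (catalytic subunit of polymerase alpha), Prim1 (primase) and Pold1 (catalytic subunit of polymerase delta) lay above 0 in BRAFV600E, by 0.24 to 0.52, and below 0 in MEKi, by -0.01 to -0.36. None was called. Pole2, a subunit of polymerase epsilon, had the widest spread between mice of the members tested, in each group. Its chosen probe read -0.87 to 3.38 in Cre control (median 2.79) and -1.90 to 1.59 in BRAFV600E (median -0.60), a fall by 2.51 ± 0.73 on the log2 scale (limma adjusted p = 0.0421). It was 1.83, 0.14, 0.17 and 2.25 in MEKi and 0.92, 0.42, 0.47 and -2.55 in Vehicle. The groups overlapped in both experiments, and 5 of the 6 Cre control mice lay above every BRAFV600E mouse. The second probe of Pole2, dimmer but also above background, differed by 0.31 in BRAFV600E and by -0.56 in MEKi, opposite in sign to the chosen one both times, so no direction is given for the gene. The call was kept in 2 of the 12 fits that left out 1 array. The chosen probe lies at chr12:70322698-70322974 (mm9), a span longer than a probe.

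Among the members that bind unwound strands and join fragments, Rpa2, a subunit of replication protein A, was the lowest after Pole2 in BRAFV600E (-0.73 ± 0.27, limma adjusted p = 0.0964) and differed by 0.06 in MEKi. The flap nuclease gene Fen1 and the ligase gene Lig1 differed by 0.03 and 0.19 in BRAFV600E and by -0.08 and -0.02 in MEKi, with no adjusted p under 0.351.

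Nucleotide supply held both calls upward in BRAFV600E. Rrm2 encodes the small subunit of ribonucleotide reductase, which makes deoxyribonucleotides and is held to S phase in dividing cells. It ranged from 1.36 to 1.74 in Cre control (median 1.56) and from 2.06 to 2.32 in BRAFV600E (median 2.10), and no value of one group reached the other. Of all genes tested, 4.19% stood higher in BRAFV600E without overlap, and Rrm2 was the only member to do so. The difference was 0.60 ± 0.11, or 1.51-fold (limma adjusted p = 0.00493). It remained past the threshold in all 12 fits that left out 1 array (adjusted p from 0.00518 to 0.0143) and with slide as a block (adjusted p = 0.0167). In the second experiment it was 1.75, 1.00, 1.93 and 1.59 in MEKi and 1.73, 3.35, 2.23 and 1.98 in Vehicle. The value of 3.35 belongs to the mouse whose sample carried pancreas RNA, and the difference was -0.76 ± 0.36 with that array (adjusted p = 0.357) and -0.41 without it (adjusted p = 0.469). The Rrm2 probe lies at chr12:25398824-25398883 (mm9).

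Dut encodes the enzyme that removes dUTP, so that uracil stays out of new DNA. It ranged from 0.31 to 0.74 in Cre control (median 0.45) and from 0.73 to 1.34 in BRAFV600E (median 1.12). Only Cre control replicate 1, at 0.74, reached the lowest BRAFV600E value, and the difference was 0.55 ± 0.14, or 1.47-fold (limma adjusted p = 0.0241). The call was lost without Cre control replicate 3, Cre control replicate 5 or BRAFV600E replicate 4 (adjusted p up to 0.0559) and with slide as a block (adjusted p = 0.184). Dut was 0.79, 0.16, 0.89 and 0.45 in MEKi and 0.96, 1.06, 1.17 and 1.2 in Vehicle, without overlap, and this difference of -0.52 ± 0.18 was not past the threshold (adjusted p = 0.193). A second, much dimmer probe differed by -0.02 in BRAFV600E and by -0.57 in MEKi. The chosen probe lies at chr2:125083359-125083418 (mm9).

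The other 3 genes of nucleotide supply were not called. Rrm1, the large subunit of the same reductase, was higher in BRAFV600E by 0.50 ± 0.15 (limma adjusted p = 0.0539), and Tyms, thymidylate synthase, by 0.35 ± 0.12 (adjusted p = 0.0804). A second probe for Tyms is also listed for the pseudogene Tyms-ps, so its signal cannot be assigned to Tyms alone. Tk1, the thymidine kinase of S phase, differed by 0.11 in both comparisons. In MEKi Rrm1 differed by -0.19 and Tyms by -0.04.

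Slbp binds the stem-loop of histone messages and Chaf1b is a subunit of the factor that places histones on new DNA. Chaf1b was 1.84, 1.25, 1.55 and 1.54 in MEKi against 1.92, 2.05, 1.94 and 2.04 in Vehicle, without overlap (difference -0.44 ± 0.14, limma adjusted p = 0.174). In the first comparison it ranged from 1.58 to 2.07 in Cre control (median 1.75) and from 1.41 to 2.12 in BRAFV600E (median 1.60), and the groups covered each other. Slbp differed by 0.22 and 0.06 in the 2 comparisons.

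The members that control entry into S phase are E2f1 itself, the cyclin E genes Ccne1 and Ccne2, and Chek1, the checkpoint kinase. Ccne1 ranged from 0.12 to 0.61 in Cre control (median 0.50) and from 0.30 to 1.09 in BRAFV600E (median 0.78), with overlap (difference 0.34 ± 0.15, limma adjusted p = 0.148). It was 0.54, -0.12, 0.58 and 0.47 in MEKi and 0.77, 0.75, 1.24 and 0.76 in Vehicle, without overlap (difference -0.51 ± 0.20, adjusted p = 0.250). E2f1 lay below Cre control in BRAFV600E (-0.29 ± 0.15, adjusted p = 0.22) and differed by -0.16 in MEKi. Chek1 differed by -0.04 in BRAFV600E and by -0.38 ± 0.16 in MEKi (adjusted p = 0.293). Its second, dimmer probe differed by 0.73 and -0.68.

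**Figure D3:**
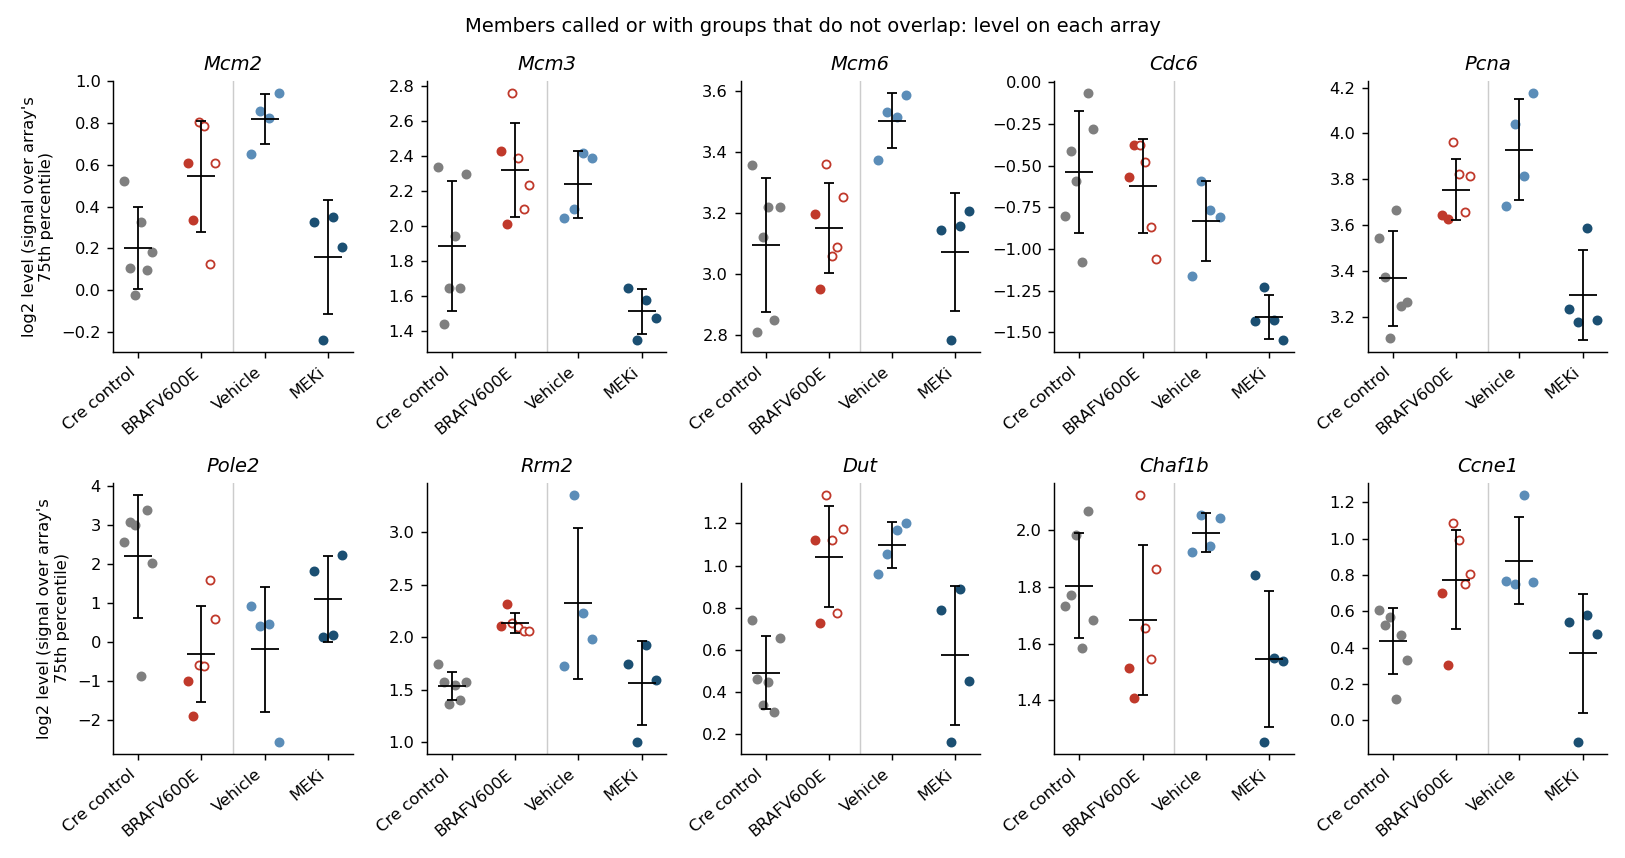
Log2 level on every array of the 10 members that were called or whose groups did not overlap in a comparison; points are mice, black lines the mean ± SD of a group, open symbols slide 2, and y axes differ. Rrm2 alone separates BRAFV600E (2.06 to 2.32) from Cre control (1.36 to 1.74) completely, and in 8 panels every MEKi point lies below every Vehicle point.

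Groups of 4 that did not overlap were more frequent than calls in the second experiment. In 8 of the 34 members every MEKi value lay below every Vehicle value: Mcm2, Mcm3, Mcm6, Cdc6, Pcna, Dut, Chaf1b and Ccne1. Of all genes tested, 5.75% did so. No member lay wholly above Vehicle, where 6.44% of all genes did. These shares describe the list, which was chosen with earlier results of these data known, and carry no test.

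The slide bears on the first comparison. Within slide 1, where 6 Cre control and 2 BRAFV600E arrays sat side by side, no member was called by limma, and 20 of 34 lay above 0. Of all genes, 1.01% were called higher and 2.84% lower there. At an unadjusted p under 0.05, 3 members were higher and 3 lower, and 4158 of all 19036 genes passed in either direction. The median difference was then 0.068, against -0.063 for all genes, compared with 0.23 and -0.017 over all 12 arrays. With slide as a fixed block the median was the same 0.068. Rrm2 was then called higher and Pole2 lower, where 2.44% and 5.63% of all genes were. Restricting to the 5 arrays of slide 1 with a spike-in slope of 0.9 to 1.2 gave 0 calls by limma (1 higher at an unadjusted p under 0.05) and a median of 0.024. Of all genes, 0.152% were called there, and 2580 of 19036 passed an unadjusted p under 0.05 in either direction. Rrm2 differed by 0.68 within slide 1 (limma adjusted p = 0.0692) and 0.60 over all arrays. Mcm4 (0.38 against 0.39), Tyms (0.30 against 0.35) and Gins2 (0.73 against 0.54) were also about as large there or larger. Rrm1 went from 0.50 to 0.28, Ccne1 from 0.34 to 0.07, Mcm10 from 0.25 to 0.04 and Mcm7 from 0.20 to -0.13. Whether these shifts come from the slide or from the mice on it cannot be told apart, since slide 2 held no control. The BRAFV600E arrays of slide 1 were all high in Y-linked genes (mean level -1.2 and -1.1 on replicates 1 and 2). Cre control replicates 1, 2 and 3 were high too (-1.3 each), while replicates 4, 5 and 6 were low (-6.2, -5.2 and -5.4). The slide 1 contrast therefore also carries this imbalance. Over all 12 arrays with the Y-linked level as a covariate, the members' median was 0.22. Limma then called 2 members higher and 0 lower, where 4.52% and 4.91% of all genes were.

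**Figure D4:**
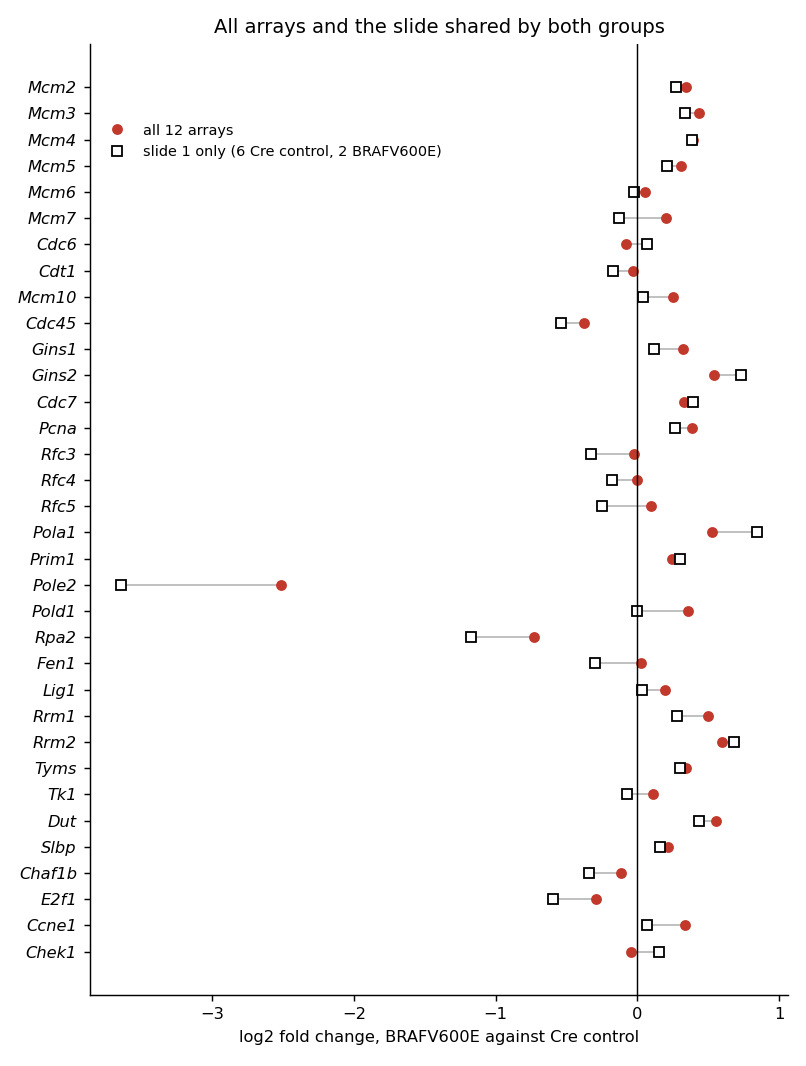
Log2 fold change of each member in BRAFV600E against Cre control, from all 12 arrays (red circles) and from slide 1 alone (open squares, 6 Cre control and 2 BRAFV600E arrays), with grey lines joining the 2 values of a gene. The members lie above 0 in 24 of 34 cases with all arrays and in 20 of 34 on slide 1, and Rrm2 changes little (0.60 and 0.68).

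Probes of 1 gene did not always go the same way. Of the 19 members with several measurable probes, all probes had the same sign in 8 in BRAFV600E and in 15 in MEKi. The 11 BRAFV600E exceptions were Cdc45, Cdc6, Chek1, Dut, Mcm7, Pole2, Rfc3, Rfc5, Slbp, Tk1 and Tyms, so their directions there rest on the choice of probe. The MEKi exceptions were Cdc45, Pole2, Rfc4 and Rfc5.

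Scaling also set the count. Without scaling between arrays, all genes shifted by a median of 0.79 in BRAFV600E, and 29 members were called higher and 1 lower, where 48.1% and 0.93% of all genes were. The members' median was then 1.04, or 0.25 above that of all genes. With each array centred on its median, all genes lay at 0.11 and the members at 0.36. Then 5 members were called higher and none lower, where 8.94% and 3.15% of all genes were. At an unadjusted p under 0.05, limma gave 14 members higher and 1 lower, and 5700 of all 19036 genes passed in either direction. Leaving out 1 array gave 1 call without Cre control replicate 3, Cre control replicate 5 or BRAFV600E replicate 4, and 6 without Cre control replicate 4. The share of all genes called moved too, at 7.6%, 8.5% and 8.5% in the first 3 of these fits and 15.0% in the last. The members' median stayed above 0 in each of these settings.

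The members' directions in the 2 comparisons can be set side by side, since these share no mouse. Of the 34 members, 20 (58.8%) lay above 0 in BRAFV600E and below 0 in MEKi, as did 32.5% of the 18573 genes tested in both. Another 4 members went the other way, 4 lay above 0 in both and 6 below 0 in both. Across members the 2 differences had a Pearson r of -0.77 and a Spearman rho of -0.49, against -0.59 and -0.55 across all genes. Pole2 lay farthest from 0 in both comparisons (-2.51 and 1.28), and no correlation was taken without it. Genes are not independent of each other and no p is given.

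Other genes of replication, 48 in a list written from textbook knowledge with earlier results of these data known, gave a like picture. All 48 were tested, 38 lay above 0 in BRAFV600E with a median of 0.24, and 3 rose: Dbf4, the activator of the Cdc7 kinase (0.90 ± 0.20, limma adjusted p = 0.0155), Shmt1, a folate enzyme that feeds thymidylate synthesis (0.64 ± 0.14, adjusted p = 0.0132) and Pold4, a small subunit of polymerase delta (0.58 ± 0.17, adjusted p = 0.0443). Since 6.18% of all genes tested were called higher, 3 of 48 is about that share. With slide as a block limma called none of the 48 (4 higher and 1 lower at an unadjusted p under 0.05), where 2.44% of all genes were called higher and 5.63% lower. An unadjusted p under 0.05 was reached there by 4910 of all 19036 genes in either direction. In MEKi 33 of 48 lay below 0 with a median of -0.18, and limma called none (1 higher and 8 lower at an unadjusted p under 0.05). With the Y-linked level as a covariate the MEKi median of these 48 was -0.08, and that of the 34 members -0.11. In that fit limma called 0 members (6 lower at an unadjusted p under 0.05), where 0.12% of all genes were called higher and 0.156% lower. Of all 19230 genes, 2335 passed the unadjusted threshold there in either direction. Among 14 genes of E2F, DP and pocket proteins and their partners, 13 lay above 0 in BRAFV600E and 10 below 0 in MEKi, and limma called none in either (at an unadjusted p under 0.05, 5 higher in BRAFV600E and 3 lower in MEKi). With the Y-linked level as a covariate 7 of these 14 lay below 0 in MEKi.

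Markers of dividing cells were set beside the replication genes. In BRAFV600E all 20 proliferation and mitosis markers lay above Cre control, with a median of 0.56, and 7 rose, namely Cdk1, Ccna2, Plk1, Bub1, Cenpa, Cenpe and Tpx2. Within slide 1 the 20 still lay above 0, with a median of 0.64, though none was called there by limma (11 higher at an unadjusted p under 0.05). In MEKi 15 of the 20 lay above 0, with a median of 0.11, and none was called in either direction, or at an unadjusted p under 0.05. With the Y-linked level as a covariate all 20 lay above 0 in MEKi, with a median of 0.29, and limma called none (3 higher at an unadjusted p under 0.05). Mki67, the usual marker of cycling cells, was 0.49 ± 0.16 higher in BRAFV600E (limma adjusted p = 0.0680) and differed by less than 0.01 in MEKi. The difference between the 2 lists was not tested. In BRAFV600E the mitosis markers averaged 0.58 to 1.23 per array, against 0.23 to 0.77 in Cre control.

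Markers of other cells in the tissue also differed between the groups. Paneth cells share the crypt with dividing cells and do not divide. The summed level of 5 Paneth markers was 833 to 1499 times the 75th percentile in Cre control, 235 to 786 in BRAFV600E, 939 to 1428 in MEKi and 565 to 1054 in Vehicle, and 4 of the 5 fell in BRAFV600E. The 6 smooth muscle markers summed to 71.2 to 107 in Cre control and 70.3 to 160 in BRAFV600E, and 2 of them, Des and Actg2, rose. Macrophage markers (4 genes) summed to 203 to 339 in Cre control and 49.1 to 200 in BRAFV600E, without overlap, and 2 of them fell. Called lower in BRAFV600E were also 2 of 4 goblet, 2 of 5 T cell and 1 of 4 enteroendocrine markers. The summed T cell level had a median of 78.2 in Cre control and 78.5 in BRAFV600E. Among the 8 enterocyte markers 1 was called higher, but 6 lay below 0, with a median of -0.42. Their summed level had a median of 1859 in Cre control and 1218 in BRAFV600E. Germinal centre B cells also replicate fast, but their 5 markers summed to at most 0.724 on any array, and in BRAFV600E (0.325 to 0.434) lay below Cre control (0.455 to 0.724). The part of these cells in the members' values was not tested. The 4 stem cell markers went different ways in BRAFV600E, and their summed level had a median of 14.8 in Cre control and 14.7 in BRAFV600E. Ascl2 fell by 1.52 (log2; adjusted p = 1.57e-05 by limma) and Lgr5 fell by 0.84 (adjusted p = 0.0419, and 0.148 with slide as a block). Olfm4 differed by -0.10 and Smoc2 by 0.28, and neither was called. In MEKi all 4 lay above 0 and Ascl2 was called (1.00, adjusted p = 0.0309).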

How the data were processed

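Total RNA of 20 mice was hybridised to 1-colour Agilent SurePrint G3 Mouse v2 8x60K arrays. Per the file headers, the authors extracted each scan with Agilent Feature Extraction (10.5.1.1), and the deposited intensity is background-subtracted and detrended within the array, not scaled between arrays; the deposited marks for spots of another kind (controls, outliers, well above background) served as filters. The deposited series matrix matched the scanner intensity within 0.6% on 100% of spots. Control and outlier spots were dropped, copies of a probe averaged, log2 taken and the 75th percentile of each array subtracted. Of 56605 probes, 34023 were named by accession, 9993 by symbol and 318 by synonym. Genes well above background on 6 of 12 or 4 of 8 arrays were fitted with limma 3.58.1 (R 4.3.3), after a test on simulated data. Members and lists were chosen with earlier results of these data known. All 35 members are accounted for by role, and those called or without overlap are given with their array values. Of other replication genes and E2F partners those called are named. Alternatives covered scaling, background, filters, probes, weights, slide, spike-in RNA, the Y-linked level and each array left out. Replicate numbers only name arrays, and nothing shows more than 1 array per mouse. What part of a transcript a probe covers was not analysed here. Array number limits the precision.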

Additional observations from a re-analysis of the deposited data

Results flagged for a closer look

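In 139 groups of 4 or 6 arrays, 15 held a value far from the rest of its group by Dixon's criterion, where chance alone gives about 5%, or 1 in 20. In the Cre control group, Pole2 in replicate 4 (-0.87), Slbp in replicate 6 (-1.46), Pold1 in replicate 6 (-0.074) and Lig1 in replicate 2 (1.88) lay below the other 5 mice, and Cdc7 in replicate 1 (-0.26) lay above them. In BRAFV600E, Rrm2 in replicate 2 (2.32) and Slbp in replicate 6 (0.12) lay above the others. In MEKi, Mcm6 (2.78) and Ccne1 (-0.12) were low in replicate 2, Pcna was high in replicate 3 (3.59), and Ccne2 was high in replicate 1 (-4.42), its only value well above background. In Vehicle, Pole2 (-2.55) and E2f1 (-0.92) were low in replicate 4, and in replicate 3 Tk1 was low (2.39) and Ccne1 high (1.24). The causes were not tested.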

How the results depend on the processing

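No paired analysis was possible because the labels number no replicates and the numbers used here only name arrays. Precision was limited by the number of arrays, by a slide without controls and by a row that cannot be told apart from treatment. In BRAFV600E, where 3 members were called, the count was 30 without scaling between arrays, 5 with scaling to the median, 6 with genes well above background on every array, 9 with array weights, and 0 within slide 1 or on arrays with a good spike-in slope. All genes moved too: 49.03% were called unscaled, 12.1% with median scaling, 16.2% on every array, 19.7% with weights, 3.86% within slide 1 and 0.152% on the spike-in arrays, against 12.4%. The count of members ranged from 1 to 6 when 1 array was left out, and the share of all genes called from 7.6% to 15.0%. The members' median of 0.23 became 1.04 unscaled, 0.068 with slide as a block or within slide 1, and 0.024 on the spike-in arrays, and ranged from 0.19 to 0.27 when 1 array was left out. Of other replication genes, 41 were called unscaled, 10 with array weights, 1 with the mean of probes, 0 with the slide block, within slide 1 or on the spike-in arrays, and 2 to 3 with 1 array left out, against 3. In MEKi, where 1 member was called, 2 were with normexp and 3 with array weights, and 0 unscaled, with median scaling, without a filter, with the mean of probes, with the Y-linked covariate, or with any 1 array left out. Of all genes 1.98% were called, 2.86% with normexp and 6.30% with weights. The share was 0.374% unscaled, 1.48% with median scaling, 0.934% without a filter and 1.58% with the mean of probes. It was 0.276% with the Y-linked covariate and 0.3952% to 1.955% with 1 array left out. Other replication genes gave 1 call with normexp, 2 with array weights and 0 to 1 with 1 array left out. The members' median of -0.19 lay between -0.27 and -0.11 in the latter.

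Of 410 alternative values for the 10 members given by array, 344 kept direction and side of the threshold, 37 lost and 13 gained the threshold, and 16 changed sign. All sign changes were in BRAFV600E. Mcm6 (0.06) was -0.013 with quantile normalization, -0.033 with normexp, -0.023 with the slide block or within slide 1 and -0.19 on the spike-in arrays, and ranged from -0.0019 to 0.11 with 1 array left out. Cdc6 (-0.08) was 0.73 unscaled, 0.047 with median scaling, 0.46 with the mean of probes, 0.069 with the slide block or within slide 1 and 0.25 on the spike-in arrays, and ranged from -0.19 to 0.013 with 1 array left out. Chaf1b (-0.12) was 0.69 unscaled and 0.0091 with median scaling. The causes were not tested.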
